A study of Equus caballus with 34 samples.

Results

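The genes of the inhibin and activin system were followed in the wall of the mare's dominant ovarian follicle: the subunit genes INHA, INHBA and INHBB, the activin antagonist gene FST, and TGFBR3, the gene of the inhibin co-receptor betaglycan. These 5 genes were taken with every probe that the array files name for them, by symbol or by description, which gave 8 of the 43603 probes outside the controls (INHA 1, INHBA 4, INHBB 1, FST 1, TGFBR3 1). The samples were granulosa cells (GC), the layer that lines the follicular cavity, and theca wall (TW), the vascularised layer around it, from follicles of horses (Equus caballus) at 3 stages. These were the early dominant stage (ED), the late dominant stage (LD) and the preovulatory stage (PO). Each sample was hybridised to its own single-colour array: 5 GC ED, 5 GC LD, 5 GC PO, 5 TW ED, 9 TW LD and 5 TW PO. The design text calls the arrays of a group biological replicates and compares the stages within each layer. The sources used here give no age, breed, hormone treatment, follicle diameter or time before ovulation for any group, and do not say whether any GC sample and TW sample shared a follicle.

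Inhibins are dimers of the α subunit, encoded by INHA, with a β subunit, and activins are dimers of β subunits alone, encoded by INHBA (βA) and INHBB (βB). Activin favours release of follicle-stimulating hormone by the pituitary and acts on granulosa cells themselves, while inhibin from granulosa cells restrains that release. Follistatin, the product of FST, binds activin and keeps it from its receptors, and betaglycan binds inhibin and lets it occupy activin type II receptors.

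The probes are shown because what they could measure set what can be read from each gene. All probe sequences are from the scanner files, and positions are the array design's own coordinates of the horse genome, with no genome build named in the files. The INHA probe lay at chr6:9073863-9073922 on the plus strand, the INHBB probe on unplaced sequence at chrUn:292299711-292299770 on the minus strand, and the TGFBR3 probe at chr5:46047257-46058907 on the plus strand. The 60 bases of the TGFBR3 probe were thus spread over 11651 bases of the genome. The INHA, INHBB and TGFBR3 probes are printed whole:
INHA: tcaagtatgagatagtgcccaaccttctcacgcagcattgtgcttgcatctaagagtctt
INHBB: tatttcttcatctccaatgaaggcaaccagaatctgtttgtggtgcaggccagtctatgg
TGFBR3: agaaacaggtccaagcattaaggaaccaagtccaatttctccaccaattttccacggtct

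The 4 INHBA probes were steps of 1 base along the minus strand of chromosome 4, from chr4:12890043-12890102 to chr4:12890046-12890105, and had 57 bases in common. They are near-copies of 1 measurement and not 4 independent ones. Their first 30 bases are given with the common stretch in capitals, and the first 30 bases of the FST probe (chr21:14378171-14378230, minus strand) follow in lower case:
INHBA A_69_P000421: GAGCAAGAGTTGTCCAGAGAAGACAATGGC
INHBA A_69_P000422: gGAGCAAGAGTTGTCCAGAGAAGACAATGG
INHBA A_69_P000423: ggGAGCAAGAGTTGTCCAGAGAAGACAATG
INHBA A_69_P000424: aggGAGCAAGAGTTGTCCAGAGAAGACAAT
FST: gctagtctgctgtaccttttaaatcagttc

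No member probe shared a run of 16 bases, on either strand, with a probe of any other gene on the array. INHBA is given below by A_69_P000423, the probe with the highest mean over the 34 arrays. Over the 33 arrays with all 4 values, the 4 INHBA probes correlated with each other at r between 0.995 and 0.998.

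Levels are log2 of the processed signal minus log2 of the 75th percentile of the same array, so 0 is the signal at that percentile. Each member has 1 probe with its own binding strength, so a level is compared between arrays for 1 gene and never between genes. Spots well above background made up 64.3% to 82.5% of each array, and the 75th percentile was a processed signal of 785 to 2062. Slide 7 (TW ED 4, TW LD 6 and 7, TW PO 4) stood apart, with repeated probes varying by a median of 15.4% to 24.5% (coefficient of variation) against 3.7% to 6.26% on the other 30 arrays. In GC the 11 granulosa markers had a mean level of 1.09 to 2.12 at ED, −0.49 to 1.89 at LD and −0.37 to −0.09 at PO, above every TW array, and the endothelial markers TEK and EMCN were not well above background on any GC array. Some granulosa markers taken singly were lower in GC. At ED, GATM had group means of −3.12 in GC and −2.55 in TW. At PO, GJA1 had 0.86 and 2.02, KRT18 0.1 and 1.58, and HSD17B1 −6.13 and −5.79. Every other marker mean was higher in GC at its stage, and SERPINE2 differed little (5.39 and 5.27 at PO). The 11 theca markers had a mean level of 0.39 to 2.31 on TW arrays against −2.65 to −0.64 on GC arrays. The layers are whole tissue samples, in which fewer cells of a type and less RNA per cell cannot be told apart.

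The GC signals of several members reached the limit of the scanner. The INHA spot was saturated on 12 of 15 GC arrays with a processed signal of 63164 to 76396, the INHBA spot on 10 of 15, and the FST spot on 6 of 15. On those arrays the level is the ceiling divided by the array's 75th percentile and gives only a lower limit. All 5 GC ED arrays were saturated for INHA, INHBA and FST, so a fold from GC ED for these genes is written as "at least", unless the other side is limited too. The spread of those GC ED levels is then largely that of array scaling: INHA minus INHBA had an SD of 0.01 over the GC ED arrays. The SE and p against GC ED for these genes share that limit. No member was saturated on a TW array, and INHBB and TGFBR3 were saturated nowhere. At the other end, INHBB was well above background on 5 of 5 GC ED, 4 of 5 GC LD, 3 of 5 GC PO, 4 of 5 TW ED, 8 of 9 TW LD and 4 of 5 TW PO arrays, so folds against its low groups are not exact.

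**Figure D1:**
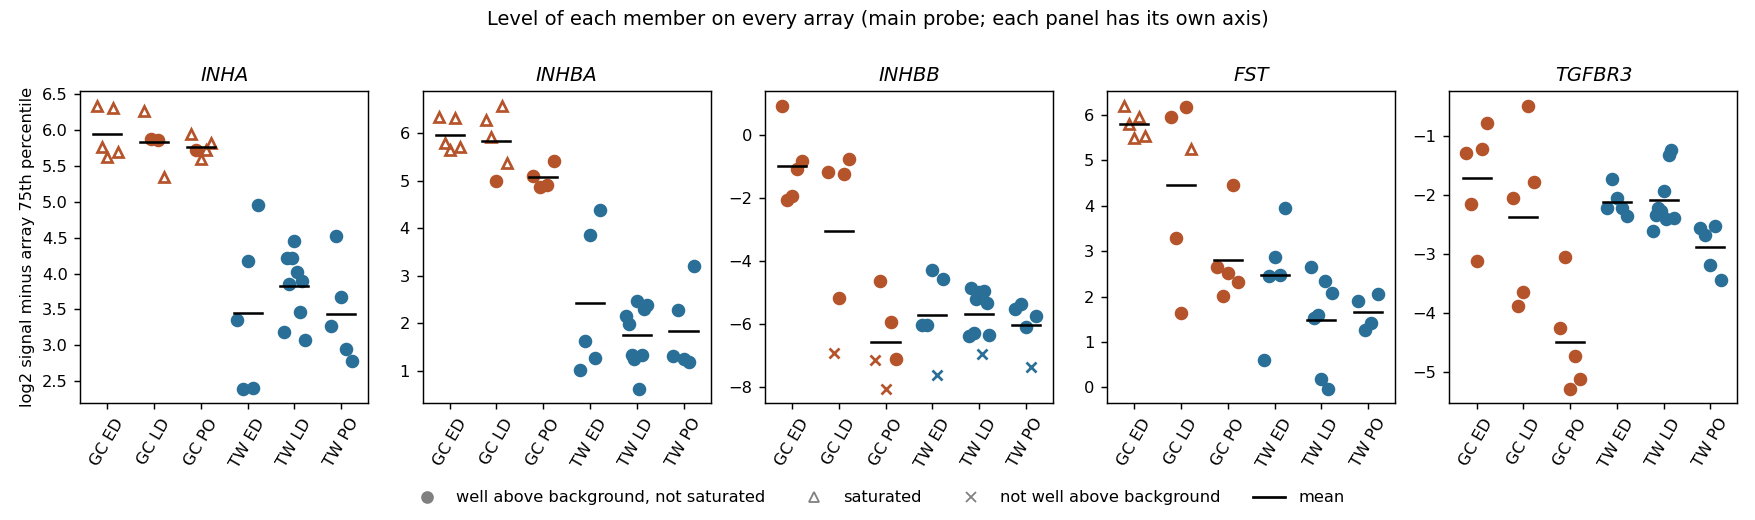
Level of the 5 members on each of the 34 arrays, as log2 signal minus the array's 75th percentile, in the 6 groups; open triangles are saturated spots, crosses are spots not well above background, and black bars are group means. INHA and INHBA lay higher on every GC array than on any TW array, while INHBB, FST and TGFBR3 had group means that were lower at GC PO than at GC ED.

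In GC, 4 of the 5 members were lower at PO than at ED (INHBA, INHBB, FST and TGFBR3), where limma called 44.9% of all 32603 probes tested, 21.4% of all being lower. From LD to PO, 2 members were lower (INHBB and TGFBR3), with 16.9% of all probes called and 9.66% lower, and from ED to LD none was called, with 0.00307% of all probes called. None of the 5 had an unadjusted p under 0.05 in that first step, against 15.8% of all probes. In TW, TGFBR3 was lower at PO than at LD and than at ED, with 16.7% and 26.8% of all probes called, and 7.26% and 12% lower. From ED to LD in TW no member was called, with 0.0366% of all probes called, and none had an unadjusted p under 0.05, against 15.2% of all probes. The median change of the 5 members from ED to PO was −2.78 on the log2 scale in GC and −0.59 in TW, beside medians of 0.09 and 0.04 over all probes. The mean of the 11 granulosa markers in GC moved with these falls, from 1.09 to 2.12 at ED down to −0.37 to −0.09 at PO, and its part in them was not tested.

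The markers of a list did not move as 1. From ED to PO in GC, the group means of HSD17B1 went from 3.02 to −6.13, of IHH from −1.86 to −8.16 and of FSHR from 0.49 to −3.22, while NR5A2 was at 3.18 and 3.20 and GATM went from −3.12 to −0.96. Markers of other cells moved in GC over the same step: the mean of the 5 leukocyte markers ran from −5.71 to −4.16 at ED and from −4.30 to −2.56 at PO, with CD14 at −3.52 and 1.08, CD68 at −3.34 and −0.78 and CD3E at −4.72 and −7.74. The mean of the 5 smooth muscle and pericyte markers ran from −6.32 to −5.33 at ED and from −3.44 to −2.75 at PO, with CNN1 at −8.44 and −0.51 and TAGLN at −3.72 and −0.40, and MYH11 was not well above background on any GC array. The theca and endothelial means overlapped between these stages. The part of any of these in the member changes was not tested. Calls and adjusted p in the text are from limma with Benjamini-Hochberg adjustment over every probe of the fit, except where a permutation test is named.

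INHA, the gene of the α subunit that makes a dimer an inhibin, was at the ceiling in GC. Its GC ED levels were 6.34, 5.76, 5.62, 6.30 and 5.70, all 5 from saturated spots. At GC LD they were 6.26, 5.87, 5.86 and 5.35, with replicate 4 left out for its outlier flag, and at GC PO 5.95, 5.72, 5.60, 5.72 and 5.82, of which 4 were saturated. The 3 groups overlapped. No stage change of INHA in GC was called (PO against ED −0.18 ± 0.23 SE, adjusted p = 0.533), and none could be read above the ceiling. In TW the INHA signal was within range: 3.35, 2.39, 4.18, 2.41 and 4.95 at ED, a lowest of 3.07, a median of 3.90 and a highest of 4.45 over the 9 LD arrays, and 3.27, 4.52, 3.67, 2.95 and 2.78 at PO. The TW groups overlapped throughout, and the change from ED to PO was −0.02 ± 0.44 SE (adjusted p = 0.982, n = 5 and 5).

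INHA was higher in GC than in TW at each stage, and no GC array overlapped a TW array of its stage. The difference at ED was at least 5.61-fold (log2 2.49 ± 0.37 SE, adjusted p = 3.95e-06). At LD it was 2.01 ± 0.35 SE on the log2 scale (adjusted p = 4.36e-05) and at PO 2.32 ± 0.37 SE (adjusted p = 8.22e-06), both with most GC spots saturated. Between the layers limma called 35.4%, 32% and 49.5% of all probes at ED, LD and PO, with 14.4%, 12.2% and 21.4% higher in GC. Of the members, 4 were higher in GC at ED and at LD, and 2 were higher and 1 lower at PO, where 28.1% of all probes were lower. On slide 8 the LD arrays of both layers could not be set against each other because the GC value was left out. On slide 2 they differed by 2.04. No slide held both layers at ED or at PO, so at those stages a layer difference of any member cannot be told apart from a slide difference.

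INHBA, the gene of the βA subunit shared by inhibin A and activin A, was lower in GC at PO than at ED. Its GC ED levels were 6.35, 5.80, 5.65, 6.33 and 5.72, all saturated. GC LD gave 6.27, 5.91, 5.00, 6.58 and 5.38, saturated on all but replicate 3, which was the lowest. GC PO gave 5.11, 4.86, 4.91 and 5.41, with replicate 4 left out because its saturated spot carried an outlier flag. The 4 PO values lay below all 5 ED values, with means apart by −0.90 ± 0.32 SE on the log2 scale (adjusted p = 0.0336, n = 4 and 5). With the flagged spot kept, the change was −0.78 with an adjusted p of 0.0493. The left-out array was the brightest of its group, and all 5 ED spots were at the ceiling, so no fold is given as a limit. The other 3 probes gave −0.86 (A_69_P000421, adjusted p = 0.0331), −0.75 (A_69_P000422, adjusted p = 0.0576) and −0.67 (A_69_P000424, adjusted p = 0.0849), so the call held for 2 of 4 probes and lay near the threshold for all. Leaving out GC ED replicate 1 or 4, or GC PO replicate 1, 2 or 3, ended the call, with adjusted p between 0.0607 and 0.0797, and fitting all 34 arrays together gave 0.174.

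In TW, INHBA stood high on 2 of 5 ED arrays. TW ED levels were 1.03, 1.64, 3.87, 1.28 and 4.38, with replicates 3 and 5 above every other TW array. The 9 TW LD arrays ran from 0.62 through a median of 1.98 to 2.47, and the TW PO arrays read 1.32, 2.28, 1.25, 1.18 and 3.21. No stage change in TW was called (PO against ED −0.59 ± 0.60 SE, adjusted p = 0.482). INHBA was higher in GC than in TW at ED by at least 11.5-fold (log2 3.53 ± 0.51 SE, adjusted p = 2.02e-06), at LD by 4.07 ± 0.45 SE on the log2 scale (adjusted p = 2.14e-08) and at PO by 3.22 ± 0.54 SE (adjusted p = 1.41e-05), with no overlap at any stage.

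INHBB, the gene of the βB subunit of inhibin B and activin B, had the lowest fitted change of the 5 members in GC. Its levels at GC ED were 0.94, −2.05, −1.94, −1.07 and −0.81. At GC LD they were −1.16, −6.93, −5.17, −1.25 and −0.77, so replicates 1, 4 and 5 lay within the ED range and replicates 2 and 3 lay far below it. At GC PO they were −7.14, −4.64, −8.08, −5.94 and −7.13, all below every ED array. In processed signal that is 280 to 1664 at ED and 5.4 to 54.9 at PO. The change from ED to PO was −5.60 ± 1.11 SE, or 48.5-fold lower (adjusted p = 0.0012), with the PO side measured above background on 3 of 5 arrays. It was −3.73 on the deposited values and −2.73 with normexp background correction, both still called. Each of the 5 slides showed it, with differences of −8.08, −2.59, −6.14, −4.86 and −6.33 on slides 2, 3, 5, 8 and 10.

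Between LD and PO, INHBB in GC changed by −3.53 ± 1.11 SE (adjusted p = 0.0418), with 3 of 5 PO arrays below every LD array. The LD replicates 2 and 3 overlapped the PO arrays, and on slide 3 the PO array was 2.29 above the LD array. The call held in 12 of 27 settings, and the change was −2.25 on the deposited values (adjusted p = 0.0602) and −1.62 with normexp (adjusted p = 0.0829). It was lost on leaving out GC PO replicate 1, 3, 4 or 5, GC LD replicate 1, 4 or 5, or GC ED replicate 2, 3, 4 or 5, with adjusted p of 0.0504 to 0.109. From ED to LD the change was −2.07 ± 1.11 SE (adjusted p = 0.368).

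INHBB in TW was near background at every stage. TW ED levels were −6.05, −6.05, −4.30, −7.64 and −4.57, the LD levels ran from −6.95 through −5.35 to −4.87, and the PO levels were −5.52, −5.37, −6.11, −7.39 and −5.75. The lowest array of each TW group was on slide 7 and was not well above background. GC exceeded TW at ED by 4.73 ± 0.88 SE on the log2 scale (26.6-fold, adjusted p = 7.42e-05), with all 5 GC arrays above all TW ED arrays. With normexp that difference was 2.65, still called. At LD the difference was 2.65 ± 0.78 SE (adjusted p = 0.0087), with 3 of 5 GC arrays above the TW range. It was 1.55 with normexp, still called, and 3.00 with slide as a fixed block, where the call was lost (adjusted p = 0.0899). At PO it was −0.56 ± 0.88 SE (adjusted p = 0.621), and the layers overlapped. The fall from ED to PO in GC exceeded the TW change by −5.29 ± 1.25 SE (adjusted p = 0.00224), and by −3.37 on the deposited values and −2.59 with normexp, both called. This was a comparison of layers in which 29.8% of all probes were called and 15.1% lower, and 2 members were called. From ED to LD and from LD to PO no member's change differed between the layers at an adjusted p under 0.05, where 0.0137% and 19.8% of all probes were called. INHBB and TGFBR3 had an unadjusted p under 0.05 in the second of these, where 32.9% of all probes had one.

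The order of the INHBB group means was GC ED (−0.99 ± 1.20 SD), GC LD (−3.06 ± 2.81 SD), TW LD (−5.71 ± 0.79 SD), TW ED (−5.72 ± 1.35 SD), TW PO (−6.03 ± 0.81 SD) and GC PO (−6.59 ± 1.33 SD). GC ED and GC LD overlapped, and so did the last 4 groups with each other. GC LD also overlapped each of those 4 groups, through its replicates 2 and 3 at −6.93 and −5.17.

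FST, the gene of follistatin, was lower in GC at PO than at ED. GC ED levels were 6.21, 5.81, 5.50, 5.96 and 5.54, all saturated. GC LD levels were 5.95, 3.29, 1.64, 6.18 and 5.26, again with replicates 2 and 3 as the low pair. GC PO levels were 2.65, 2.02, 2.52, 4.47 and 2.33, every one below the ED arrays, with replicate 4 apart from the other 4. The change from ED to PO was at least 8.05-fold (log2 −3.01 ± 0.74 SE, adjusted p = 0.00456), and the 5 slides gave between −3.80 and −1.49. The step from LD to PO was −1.67 ± 0.74 SE (adjusted p = 0.123) and was called only when LD replicate 3 was left out (−2.37, adjusted p = 0.00781).

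Follistatin mRNA in TW was 0.61, 2.45, 2.88, 2.48 and 3.95 at ED, from −0.04 through 1.60 to 2.66 on the 7 usable LD arrays, and 1.90, 1.27, 1.41 and 2.06 on the 4 usable PO arrays. TW LD replicates 7 and 9 and TW PO replicate 2 were left out for outlier flags. No TW step was called (PO against ED −0.82 ± 0.62 SE, adjusted p = 0.341). GC exceeded TW at ED by at least 10.1-fold (log2 3.33 ± 0.68 SE, adjusted p = 0.000317) and at LD by 2.99 ± 0.63 SE on the log2 scale (adjusted p = 0.000496). At PO the difference was 1.14 ± 0.73 SE (adjusted p = 0.197), with 4 of 5 GC arrays above all TW arrays. The difference between the GC and TW changes from ED to PO was −2.19 ± 1.00 SE and was not called (adjusted p = 0.0964). The ceiling held the GC ED level down, so the GC fall in it is a lower limit.

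TGFBR3, the gene of the inhibin co-receptor, was the member with a called change in both layers. GC ED levels were −1.28, −2.15, −3.12, −1.22 and −0.77. GC LD levels were −2.04, −3.88, −3.65, −0.48 and −1.78, with replicates 2 and 3 once more the lowest. GC PO levels were −4.26, −3.04, −5.29, −4.73 and −5.11, of which 4 lay below every ED array and replicate 2 did not. The change from ED to PO in GC was −2.78 ± 0.65 SE (6.85-fold lower, adjusted p = 0.00336), and it was below 0 on all 5 slides (−4.34 to −0.88). With normexp background correction it was −1.48 and still called. From LD to PO it was −2.12 ± 0.65 SE (adjusted p = 0.0379) and −1.07 with normexp (adjusted p = 0.0818). This change passed the threshold in 18 of 27 settings and was lost, among others, without GC PO replicate 1, 3, 4 or 5 or GC LD replicate 1, 4 or 5.

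In TW the levels of TGFBR3 were −2.22, −1.72, −2.05, −2.21 and −2.36 at ED, from −2.61 through −2.26 to −1.24 at LD, and −2.56, −2.67, −3.18, −2.53 and −3.44 at PO. All 5 PO arrays lay below all 5 ED arrays, by 0.77 on the log2 scale (−0.77 ± 0.26 SE, 1.7-fold lower, adjusted p = 0.038), and all 5 slides had the lower value at PO (−1.13 to −0.32). PO was lower than LD by 0.80 (−0.80 ± 0.23 SE, adjusted p = 0.0268), with 3 of 5 PO arrays below the LD range. Both TW calls lay near the threshold: leaving out TW PO replicate 3 or 5 ended each of them, leaving out TW ED replicate 1, 2 or 3 ended the first, and fitting all 34 arrays together gave adjusted p of 0.285 and 0.24.

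TGFBR3 did not mark GC as the other members did. The difference between layers was 0.40 ± 0.49 SE at ED (adjusted p = 0.569) and −0.29 ± 0.43 SE at LD (adjusted p = 0.651), with overlap at both stages. At PO, GC was lower than TW by −1.61 ± 0.49 SE (3.05-fold, adjusted p = 0.00678), with 4 of 5 GC arrays below the TW range. That difference depended on the processing and was called in 42 of 47 settings. It was −0.83 with median centring (adjusted p = 0.133) and −0.88 with quantile normalization (adjusted p = 0.116). It was −0.58 on the deposited values (adjusted p = 0.249), −0.41 with normexp (adjusted p = 0.327) and −1.50 with slide as a fixed block (adjusted p = 0.171). The fall from ED to PO was larger in GC than in TW by −2.01 ± 0.69 SE (adjusted p = 0.027), and was −1.49 with quantile normalization (adjusted p = 0.0875), −1.10 on the deposited values (adjusted p = 0.149) and −0.83 with normexp (adjusted p = 0.181). Leaving out GC PO replicate 3 or 5 or GC ED replicate 5 also ended that call.

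**Figure D2:**
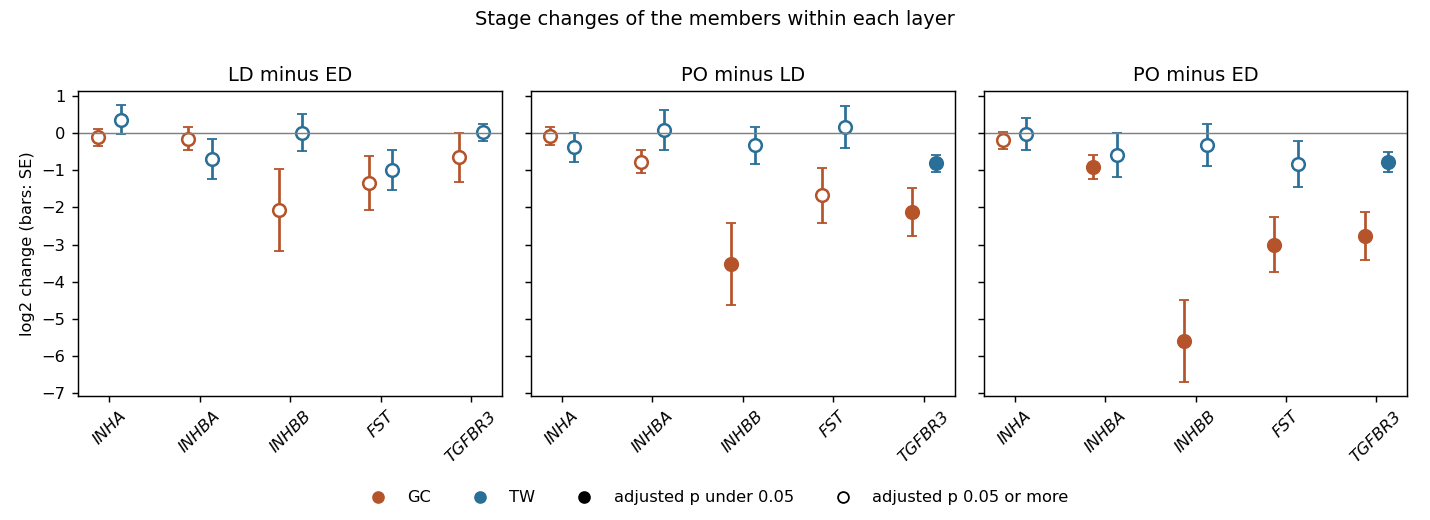
Log2 change of each member between stages in GC and TW, with the standard error of the limma fit as bars; filled points passed an adjusted p of 0.05. The lowest point is INHBB in GC from ED to PO at −5.60, and TGFBR3 is the only member with filled points in TW.

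INHBB, FST and TGFBR3 shared their low arrays in GC. GC LD replicates 2 and 3 were the lowest pair of their group for each of these genes, with 3.29 and 1.64 for FST against 5.26 to 6.18 on the other 3 arrays. The same 2 arrays had granulosa marker means of 0.05 and −0.49, against 1.44 to 1.89 on the other 3 GC LD arrays, and whether that bears on the member levels was not tested. Over the 15 GC arrays INHBB correlated with TGFBR3 at r = 0.92 and with FST at r = 0.86, as descriptions over arrays that share the stage steps. Over the 19 TW arrays the same pairs gave 0.26 and 0.34 (16 arrays for FST).

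**Figure D3:**
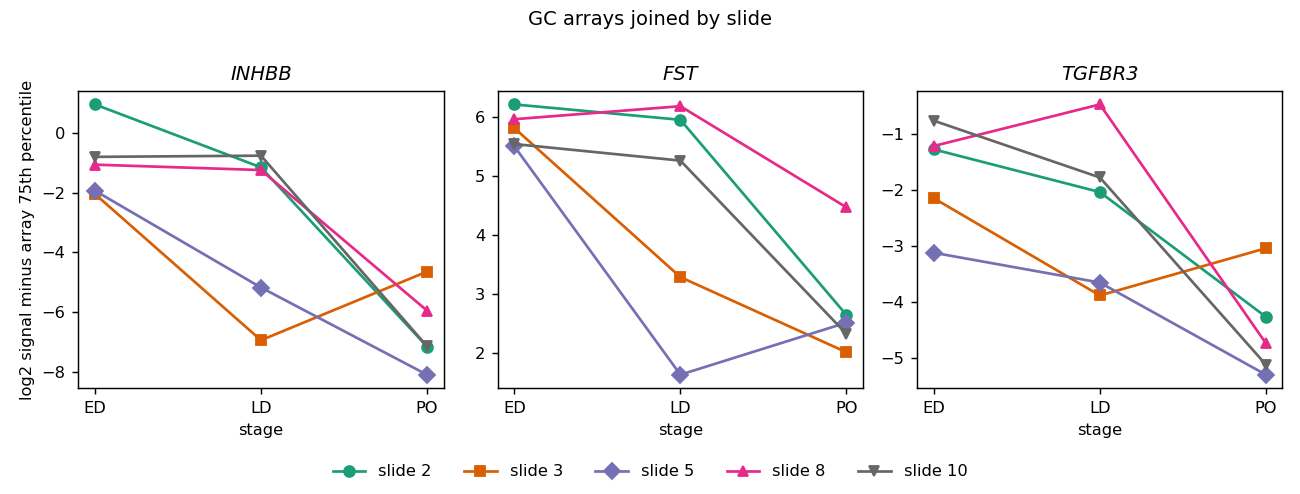
Levels of INHBB, FST and TGFBR3 on the 15 GC arrays, joined by slide over the stages ED, LD and PO; slide only groups arrays scanned together. All 5 lines end lower at PO than at ED in each panel, while the LD values on slides 3 and 5 are already low.

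The balance of subunits within an array was compared between stages as the difference of 2 levels on that array, which shows unequal change and no ratio of transcripts. In GC, INHBA minus INHBB was 6.96 ± 1.00 (SD, n = 5) at ED and 11.82 ± 1.58 (SD, n = 4) at PO, a shift of 4.86 (exact permutation test, two-sided p = 0.00794, adjusted p = 0.0476 over 24 tests). That p is the smallest the design allows. The INHA and FST balances in GC from ED to PO had the same p. The adjustment ranks them together, so the adjusted p depends on balances from which no shift is read. INHBA was at the ceiling at ED and INHBB near the floor at PO, so the shift is a limit in neither direction. It was 2.85 on the deposited values (adjusted p = 0.0381) and 1.71 with normexp, where it was not called (adjusted p = 0.0762). Leaving out any 1 of the 9 arrays gave 4.47 to 5.64, and the fewer arrays raise the smallest possible p, so the loss of the call in those cases is set by the design. FST minus INHBA at GC ED is a difference of 2 saturated spots on every array, and the INHA balances in GC rest on mostly saturated spots at both stages, so no shift is read from them.

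In TW, where no member was saturated, none of the 12 balance tests passed the adjustment. The lowest p was that of INHA minus INHBA, which was 1.01 ± 0.79 (SD, n = 5) at ED and 2.06 ± 0.87 (SD, n = 9) at LD (exact permutation, two-sided p = 0.048, adjusted p = 0.23). INHBA minus INHBB was 8.16 ± 0.80 (SD, n = 5) at ED, 7.46 ± 0.84 (SD, n = 9) at LD and 7.88 ± 0.87 (SD, n = 5) at PO, and its 3 differences lay within the spread of the arrays.

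The subunit genes in TW went with granulosa markers, among them FSHR, AMHR2 and NR5A2, which also stand in the pathway lists. Some of the 11 markers were not higher in GC than in TW at every stage, as given above. Over the 19 TW arrays the level of INHA correlated with the mean of the 11 granulosa markers at Pearson r = 0.67 (permutation p = 0.00204, adjusted p = 0.0051 over 5 members; Spearman rho = 0.59, permutation p = 0.00966, adjusted 0.0241). INHBA gave r = 0.66 (permutation p = 0.00152, adjusted p = 0.0051; rho = 0.62, permutation p = 0.00622, adjusted 0.0241) and INHBB r = 0.58 (permutation p = 0.0107, adjusted p = 0.0179; rho = 0.54, permutation p = 0.0198, adjusted 0.0331). Without the 2 arrays farthest from the median marker level these were 0.64, 0.52 and 0.56. FST gave r = 0.52 over 16 arrays (permutation p = 0.0374, adjusted p = 0.0468; rho = 0.47, permutation p = 0.0681, adjusted 0.0851), which fell by rank and without those 2 arrays to 0.23, so it rested on them. TGFBR3 showed no such relation (r = −0.04, permutation p = 0.859; rho = −0.16, permutation p = 0.503). The permutations pooled all stages and slides of TW, so these p do not set a relation between arrays apart from stage or slide differences. A slide held at most 4 TW arrays, too few for a value within slides.

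The 2 TW arrays with the highest INHBA, ED replicates 3 and 5, also had the highest granulosa marker means of all TW arrays, −1.12 and −0.83, against −3.49 to −1.42 on the other 17. Their INHA levels were 4.18 and 4.95 and their INHBB levels −4.30 and −4.57, the highest of the TW ED group. How much of the subunit mRNA in TW came from granulosa cells was not tested. Without these 2 arrays the TW change from ED to PO was 0.53 for INHBA, 0.72 for INHA and 0.55 for INHBB (adjusted p = 0.468, 0.215 and 0.531), all opposite in sign to the values with all arrays and none called either way. The GC excess over TW at ED was then 4.65 for INHBA and 3.23 for INHA on the log2 scale. The arrays left out were the highest of TW ED for each of these genes. Leaving them out could only lower the TW ED mean, so the direction of these shifts follows from the choice.

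**Figure D4:**
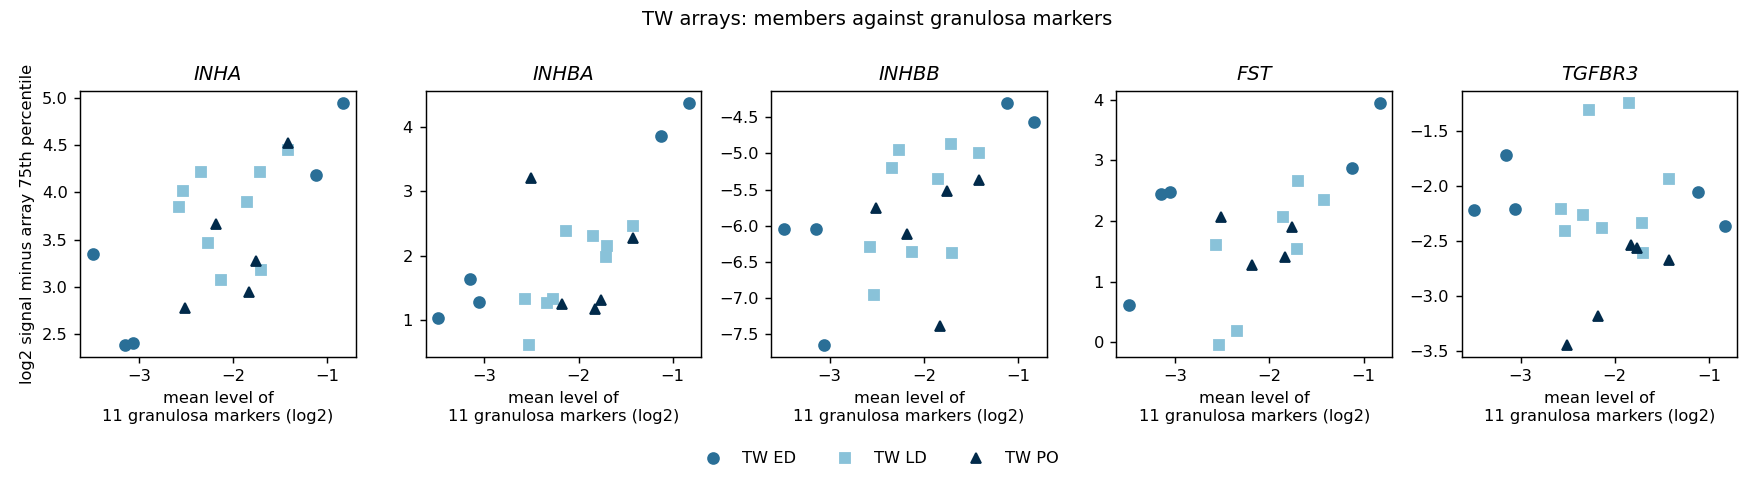
Level of each member on the TW arrays (y axis) against the mean level of 11 granulosa markers on the same array (x axis), by stage. INHA, INHBA and INHBB lie higher where the markers are higher, with TW ED replicates 3 and 5 at the right end, and TGFBR3 does not.

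The genes with the level pattern most like each member were found by Pearson r over the arrays, as a description of arrays that share the layer difference. Over all 34 arrays, INHA was most like PTHLH (0.942), SLC35G2 (0.927), C3H4orf19 (0.914), CYP19A1 (0.912) and BCAR3 (0.896), over 33 arrays. For INHBA the list was PTGDS (0.937), PTHLH (0.933), CDH2 (0.923), MAB21L2 (0.914) and NR5A2 (0.912). INHBB was closest to RAB11FIP4 (0.916), P4HTM (0.902), FBP1 (0.899), HSD17B1 (0.894), which encodes an estradiol-forming enzyme, and HAPLN1 (0.887). FST was closest to ITGA6 (0.922), VCAN (0.91), TNNI3 (0.906), CCDC181 (0.902) and LGI2 (0.896), over 31 arrays. TGFBR3 was closest to HFM1 (0.895), DZIP3 (0.893), FBP2 (0.87), WDR19 (0.866) and TTC29 (0.864).

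Within the 15 GC arrays, FST was most like CSRP2 (0.975), PBK (0.964), KIF20A (0.962), CDK1 (0.96) and TRAIP (0.96). Of the 15 FST spots, 6 were at the ceiling, with all 5 ED arrays among them. PBK, KIF20A and CDK1 encode proteins of mitosis. INHBB and TGFBR3 had PLXNC1 (0.972 and 0.943), USP51 (0.95 and 0.93) and ASB5 (0.95 and 0.953) in common. INHBB also had FBP2 (0.958) and SCML4 (0.957), and TGFBR3 had HFM1 (0.926) and TMEM63A (0.925). INHBA over 14 arrays was closest to PSTK (0.941), OR51D1 (0.903), KIAA0232 (0.896), TMEM185B (0.886) and RC3H2 (0.869), with 10 of the 15 INHBA spots at the ceiling. INHA values in GC follow the ceiling, so no list is given for it.

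Around the members, 59 of 66 listed genes of the pathway were on the array by name, and 41 entered the GC fit. From ED to PO in GC, 11 of the 41 were higher and 7 lower, with a median change of 0.07 beside 0.09 over all probes. Of all 32603 probes, 7647 were higher and 6980 lower in this comparison, or 44.9% called. From LD to PO 3 were higher and none lower, where 16.9% of all probes were called, and from ED to LD none was called. In TW 16 of 49 were higher and 3 lower from ED to PO, with a median of 0.55 beside 0.04 over all probes. Of all 35516 probes, 5263 were higher and 4254 lower in this comparison, or 26.8% called. The counts of single lists below stand beside the same numbers over all probes. The other β subunit genes, INHBC and INHBE, were well above background on 3 and 7 of the 34 arrays and did not enter the GC fit.

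Among the activin and inhibin receptors, 1 of 6 tested was called in GC from ED to PO: ACVR2A, an activin type II receptor, was lower (log2 −1.32 ± 0.36 SE, adjusted p = 0.00887), from −0.65 ± 0.62 (SD, n = 5) to −1.97 ± 0.39. From LD to PO, ACVR1C, the receptor ALK7, was higher (2.30 ± 0.72 SE, adjusted p = 0.0408), with 2 of 5 LD arrays above background. In TW, ACVR1C (2.84 ± 0.90 SE, adjusted p = 0.0258, 2 of 5 ED arrays above background) and BMPR2 (1.73 ± 0.36 SE, adjusted p = 0.00267) were higher at PO than at ED, 2 of 5 tested. The ACVR2A change differed between the layers by −1.28 ± 0.44 SE (adjusted p = 0.027). Of the other receptors, AMHR2, the receptor of anti-Müllerian hormone, was lower in GC from ED to PO (−2.04 ± 0.71 SE, adjusted p = 0.0298), the 1 called of 5 tested.

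The SMAD genes, whose proteins carry the signal of these receptors to the nucleus, moved in both directions. From ED to PO in GC, SMAD2, a transducer of activin signals, was lower by −3.29 ± 0.51 SE (9.75-fold, adjusted p = 0.000329), from 4.00 ± 0.51 (SD, n = 5) to 0.72 ± 0.38. SMAD5 was lower by −0.80 ± 0.23 SE (adjusted p = 0.013). SMAD9 was higher by 1.67 ± 0.48 SE (adjusted p = 0.0112), and SMAD7, an inhibitory SMAD, was at least 3.51-fold higher (adjusted p = 0.00289), since it was not well above background on any GC ED array. The other 4 of 8 were not called, where 44.9% of all probes were called. The SMAD2 change differed between GC and TW by −3.34 ± 0.54 SE (adjusted p = 9.17e-05), and in TW SMAD2 stayed between group means of 0.57 and 0.83.

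Other antagonists and ligands of the family went different ways in GC. BAMBI, a decoy receptor, was the 1 called of 3 antagonists from ED to PO (−1.81 ± 0.56 SE, adjusted p = 0.0174). Of 7 other ligands tested, 4 were higher at PO than at ED and none lower, where 7647 of all 32603 probes were higher and 6980 lower. These ligands were TGFB2 (5.12 ± 1.04 SE, 34.8-fold, adjusted p = 0.00139), TGFB3 (3.92 ± 0.78 SE, adjusted p = 0.00124), TGFB1 (3.42 ± 0.95 SE, adjusted p = 0.00932) and BMP2 (1.78 ± 0.50 SE, adjusted p = 0.0103). TGFB3 and TGFB1 were above background on only 1 and 2 of 5 GC ED arrays. In TW, 3 of 6 antagonists were higher from ED to PO, where 5263 of all 35516 probes were higher. These antagonists were CHRD (2.34 ± 0.84 SE, adjusted p = 0.0467), NBL1 (1.39 ± 0.25 SE, adjusted p = 0.00122) and CER1, which was at least 2.06-fold higher (adjusted p = 0.00343) from a stage at which no array was above background.

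The receptors and transcription factors known to act on the inhibin genes gave 4 higher and 2 lower of 10 in GC from ED to PO, where 44.9% of all probes were called. CEBPB (6.08 ± 0.88 SE, 67.6-fold, adjusted p = 0.00025) and NR4A1 (3.06 ± 0.61 SE, adjusted p = 0.00129) were higher. FSHR, the receptor of follicle-stimulating hormone, was lower by −3.71 ± 1.15 SE (adjusted p = 0.0174) and GATA4 by −1.87 ± 0.45 SE (adjusted p = 0.00386). FSHR ran from −5.71 to 0.80 over the GC LD arrays. Whether this goes with the low INHBB, FST and TGFBR3 of GC LD replicates 2 and 3 was not tested. Of the enzymes that cleave the precursors of the family, PCSK5 was higher in GC at PO than at ED (1.87 ± 0.68 SE, adjusted p = 0.0373), the 1 called of 2 tested.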

How the data were processed

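RNA of 15 GC and 19 TW samples was hybridised as Cy3-labelled antisense RNA to Agilent arrays. Per the file headers, the deposited spot intensity was read with Feature Extraction 9.5.3.1, whereas the submitters' processing notes name 9.1; the processed intensity has local background subtracted and no scaling between arrays. The deposited value table holds log2 values whose processing the authors do not state: each column correlated at r of at least 0.999993 with quantile-normalized log2 mean signal, differed from it by at most 0.0657 and had a median of 7.4 to 7.41. It served as an alternative.

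From the intensities, log2 of the processed signal minus log2 of each array's 75th percentile was computed over non-control spots. Outlier-flagged spots were left out, saturated ones kept, and spots of a probe averaged. Every probe was a feature, and probes not well above background on 5 or more fitted arrays were dropped. Stage changes were fitted with limma 3.58.1 (R 4.3.3; lmFit and eBayes) within GC and within TW, and differences between layers on all 34 arrays. Probes were called at an adjusted p under 0.05. Arrays of a group correlated with each other at 0.912 to 0.987, and no 2 were identical. Balances and correlations used exact or 100000-resample permutation tests (SciPy 1.17.1). The fit was tested on simulated data drawn without a scanner ceiling, slide effects or left-out spots, so that test does not cover these limits.

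All 9 TW LD arrays were used, and replicate numbers only name arrays. The 34 arrays lay on 10 slides, each scanned once. Each GC slide held every stage of its layer, as did each slide with TW alone. Slide was therefore tried as a fixed and a random block (consensus correlation 0.046 in GC and 0.053 in TW). Slides 2 and 8 alone held both layers, with TW at LD only. The members, the gene lists and the tests were chosen with earlier results of these data known. Named beyond the members are, per list and comparison, at most 4 called genes of largest size, and, per member, the 5 genes most like it. Gene names came from the files and from RefSeq's gene table of assembly TB-T2T, used for names only. A probe described as similar to follistatin belongs by its gene number to another gene and was left out. Precision is limited by the number of arrays, and p-values measure the spread between these samples, except where saturated spots set the spread. This holds for INHA, INHBA and FST at GC ED. The labels pair no animals.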

Additional observations from a re-analysis of the deposited data

Results flagged for a closer look

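GC PO replicate 4 stood above the other 4 GC PO arrays for FST, at 4.47 against 2.02 to 2.65, a gap larger than Dixon's test allows for 5 values. Chance flags about 1 in 20 such groups, and this was the 1 flag among 27 groups tested. Its processed signal of 32165.8 was not saturated.

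The change from ED to PO differed between the layers for INHBB, by −5.29 on the log2 scale (adjusted p = 0.00224, limma), with all 5 GC PO arrays below all GC ED arrays and overlapping stages in TW. It differed for TGFBR3 by −2.01 (adjusted p = 0.027, limma), where both layers had lower values at PO.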

How the results depend on the processing

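In GC from ED to PO, INHBB, FST and TGFBR3 were called under all 27 settings, with changes of −6.08 to −2.73, −3.43 to −2.81 and −3.14 to −1.48; INHBA passed in 21 of 27 (−1.11 to −0.76). The number of members called from LD to PO in GC was 2, and became 0 on the deposited values, 1 with normexp and 1 with no filter on dim probes, and 0 to 4 leaving out 1 array. In TW it was 1 from LD to PO, 0 with slide as a fixed block and 0 with all 34 arrays in 1 fit, and 1 from ED to PO, 0 with normexp, 0 with all 34 arrays and 0 without TW ED replicates 3 and 5 (added after seeing the data); leaving out 1 array gave 0 to 1 in both. Between the changes of the layers, 0 members were called from LD to PO, and 1 with the stricter background filter, with slide as a fixed or random block and without slide 7 (0 to 2 leaving out 1 array). From ED to PO the 2 became 1 on the deposited values, with quantile normalization, with normexp, without slide 7 and without TW ED replicates 3 and 5 (1 to 3 leaving out 1 array). INHBB was the member that remained called throughout. The cause was not tested. INHA and INHBA exceeded TW in GC at each stage under all 47 settings. The median over all probes between layers at PO was −0.20, and 0.58 with median centring (7813 probes higher and 10293 lower, against 15556 and 5423); within TW from LD to PO it was 0.03 and −0.18 (3367 and 2578, against 2377 and 6430). No paired analysis was possible because the labels give no replicate numbers; arrays of 1 slide served as blocks instead. Saturation in GC limits INHA, INHBA and FST, and background limits INHBB.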

Other observations

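An unnamed probe near INHBA, A_69_P102331 (chr4:12888039-12888098, minus strand, the strand of INHBA), lies 1947 bases from the INHBA probe in the array's coordinates. It was found by position after the values were seen, and the sources used here give it no gene. Its level correlated with that of INHBA at r = 0.91 over 31 arrays, as a description. It was saturated on all 5 GC ED arrays (5.90 ± 0.38 SD) and averaged 4.95 ± 1.84 at GC LD and 1.99 ± 0.87 at GC PO, where replicate 3 was left out for its outlier flag. The change from ED to PO in GC was −3.91 ± 0.75 SE on the log2 scale (adjusted p = 0.00114, limma), and from LD to PO −2.96 ± 0.75 SE (adjusted p = 0.0195), with 3 of 5 GC LD spots saturated. The left-out GC PO array had a processed signal of 9173.1, against 3281.8 to 10868.1 on the others, so no fold is given as a limit. The INHBA probe was saturated on 4 of 5 GC LD arrays, so the changes of the 2 probes in this step are not set against each other. GC LD replicates 2 and 3 read 4.81 and 1.91 and the other 3 GC LD arrays 5.27 to 6.54. In TW it averaged 1.47 at ED, 0.39 at LD and 0.73 at PO, and no TW step was called (LD against ED adjusted p = 0.441). Whether the 2 probes report 1 transcript was not tested.

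A second unnamed probe, A_69_P103026, lies 4303 bases from the INHBA probe on the opposite strand. It followed INHBA at r = 0.80 over 33 arrays and was higher in GC than in TW at LD (2.04 ± 0.35 SE, adjusted p = 2.97e-05, limma), and was not called between the layers at ED (0.53 ± 0.40 SE, adjusted p = 0.328) or at PO (0.67 ± 0.40 SE, adjusted p = 0.162).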
